A study of Mus musculus with 2 samples.

Results

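The genes described here are the classical cadherins, a few cadherins of other build and the protocadherins that lie outside the large protocadherin clusters. They were chosen by name alone: protein-coding genes called Cdh or Pcdh followed by a number (with an x allowed at the end), without the endothelial gene *Cdh5*. The rule finds 34 genes of the 22025 protein-coding genes in the file, with 194 of their 93307 transcripts. They comprise 5 type I classical cadherins, 12 type II classical cadherins, 5 other cadherins, 4 delta-1 protocadherins, 5 delta-2 protocadherins and 3 other protocadherins.

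Cadherins are membrane proteins that hold neighbouring cells together in the presence of calcium, usually by binding the same cadherin on the other cell. Inside the cell, classical cadherins are tied to the actin skeleton by catenins, whereas delta protocadherins lack the catenin-binding tail and reach actin through other partners, such as the WAVE complex. In the developing brain, different cadherins are made by different regions, layers and nuclei, and they take part in the sorting of neurons, the growth of axons and the formation of synapses.

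RNA was sequenced from brains of maternal *Mir125b-2* knockout mice (m-/p+, called mKO) and of wild-type mice (m+/p+, called WT), both at postnatal day 0 and of the strain C57BL/6 in the labels, which the methods of the study give as C57BL/6J. RNA of 6 brains of a genotype was pooled and sequenced as 1 library. There was thus no replicate, no error between animals and no test, and every value below describes these 2 pools. The mKO mice carried a deletion of *Mir125b-2* on the allele from the mother and kept the allele from the father, and *Mir125b-1*, which encodes the same mature microRNA, was not targeted. In the labels, the tissue is whole brain while the protocol speaks of hippocampus, and marker genes of the thalamus, striatum and hindbrain were found in both libraries.

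Abundance is given in FPKM, fragments counted per length of transcript and per depth of library, as deposited for each Ensembl transcript, and gene values are sums over the transcripts of a gene. The summed FPKM of all transcripts was 1748660 in mKO and 1736520 in WT (to 6 digits), and 50108 transcripts in mKO and 50321 in WT were above 0.3 FPKM. The depth of the libraries is unknown. *Mir125b-2* itself was listed at the floor value of 1e-05 in mKO and in WT, so that the deletion could not be checked here.

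MicroRNAs act by pairing their seed, bases 2 to 8, with sites in the 3′UTR of messenger RNAs. The sequences below show the mature microRNA, with its seed in capitals (RefSeq, GRCm38.p6, made from chromosome 16 at 77646279 to 77646300), and the 2 places in the 3′UTR of *Cdh22* that match the seed, with the 7 matching bases in capitals (GENCODE M21, GRCm38). The *Cdh22* matches start at bases 97 and 424 of the 651-base 3′UTR of ENSMUST00000065438, the coding transcript of this gene on chromosome 2 from 165111507 to 165234853.
mmu-miR-125b-5p: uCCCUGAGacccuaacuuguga
Cdh22, first match: tatcttgcggaagaCTCAGGGgcgcggc
Cdh22, second match: gtggatgtgacttgCTCAGGGacaccca

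Seed matches were about as frequent in the family as in other genes, with no allowance for the length or number of 3′UTRs searched. The most abundant coding transcript with an annotated 3′UTR held the letters CTCAGGG in 3 of 28 expressed cadherin and protocadherin genes (10.7%), against 14.3% of 12728 protein-coding genes searched in the same way on the transcript strand. The 3 genes were *Cdh22*, *Pcdh1* and *Pcdh12*, and the median length of the 3′UTRs searched was 1759 bases in the family, against 1072 bases over all genes. Over all 112 coding transcripts with an annotated 3′UTR, matches were also present in *Cdh3* and *Cdh16*, which makes 5 of 34 genes (14.7%), against 13.5% of 20796 protein-coding genes searched over all their coding transcripts. A mean of 3.29 transcripts was searched per member, against 2.02 over all genes, with a median of 2 in both. Of the genes listed as miR-125b targets by miRDB, *Cdh22*, *Pcdh12* and *Pcdh7* belong to the family, and TargetScan lists none of it. The study also predicted targets with microT-CDS, which was not looked up here, so members predicted by that tool alone are not named. The 3′UTRs of *Cdh8* and *Cdh18* that were searched are only 29 and 186 bases long in the annotation.

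The summed FPKM of the genes with a seed match lay close together in the 2 genotypes. Single transcripts with a match at a low level, in *Pcdh12* and *Pcdh1*, differed more. *Cdh22*, a type II cadherin of the brain, had 6.51 FPKM in mKO and 6.46 FPKM in WT. *Pcdh1* had 19.5 FPKM in mKO and 18.8 FPKM in WT, and *Pcdh12* had 1.60 FPKM in mKO and 1.60 FPKM in WT. Most of the *Pcdh12* sum came from transcripts without a coding annotation, and its main transcript with the match, ENSMUST00000025311, had 0.572 FPKM in mKO and 0.394 FPKM in WT (ratio 1.45). In this range, a mean between 0.3 and 1 FPKM, only 22.7% of all transcripts of protein-coding genes differed by less than 1.2-fold. The *Cdh22* transcript with the matches, ENSMUST00000065438, had 6.28 FPKM in mKO and 6.46 FPKM in WT, and the *Pcdh1* transcript searched, ENSMUST00000160721, had 8.59 FPKM in mKO and 8.14 FPKM in WT. ENSMUST00000159405 of *Pcdh1*, also with a match, had 3.89 FPKM in mKO and 3.30 FPKM in WT (ratio 1.18). Another *Pcdh1* transcript with a match, ENSMUST00000057185, was listed at the floor in mKO and at 0.315 FPKM in WT. On the log2 scale, with 0.1 FPKM added to both values, the median ratio of mKO to WT was 0.01 over these 3 genes and 0.04 over the 25 expressed members without a match. Over all protein-coding genes the medians were -0.009 with a match and 0.003 without one. *Pcdh7*, the third gene on the miRDB list, had 40.3 FPKM in mKO and 39.7 FPKM in WT, and the letters were found in none of its annotated 3′UTRs.

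Across the whole family, the 2 pools were close to each other. Of the 34 genes, 28 had a mean summed FPKM of at least 1, and none of these 28 was above 1.2-fold of WT, where 6.13% of 12863 protein-coding genes were. None was below 1/1.2 of WT either, where 7.49% of those genes were. With a minimum of 5 FPKM, it was again 0 of 22 members in each direction, beside 3.6% above and 3.51% below among 9482 genes. The log2 ratios ran from -0.22 in *Cdh9* to 0.26 in *Cdh18*. In bulk RNA, fewer cells of a type and less RNA per cell cannot be told apart, which holds for every value given here.

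The small differences leaned to one side. The summed FPKM was higher in mKO for 23 of the 28 genes (82.1%), against 50.4% of the 12863 protein-coding genes, and the median log2 ratio was 0.04 for the family and 0.001 for all genes. Of 5 neuronal markers, 4 were also higher in mKO, with a median log2 ratio of 0.01 and a sum of 1345 FPKM in mKO and 1344 FPKM in WT. All 4 markers of astrocytes and radial glia were lower in mKO, with a median of -0.05 and a sum of 663 FPKM in mKO and 672 FPKM in WT. Single genes ranged from 20.1 to 773 FPKM in mKO and from 19.9 to 768 FPKM in WT in the neuronal list, and from 12.9 to 555 FPKM in mKO and from 14.3 to 559 FPKM in WT in the glial list, with none at 0, and their part in the lean of the family was not tested. The count was 21 of 28 after scaling both libraries to the same total FPKM, and 18 of 26 with protein-coding transcripts only. The FPKM of all members together came to 559 in mKO and 537 in WT. All 9 delta protocadherins were on the higher side, although *Pcdh11x* passed to the lower side after scaling to the same total and *Pcdh18* with protein-coding transcripts only, whereas type II cadherins were split, with 8 of 11 higher and 3 lower.

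**Figure D1:**
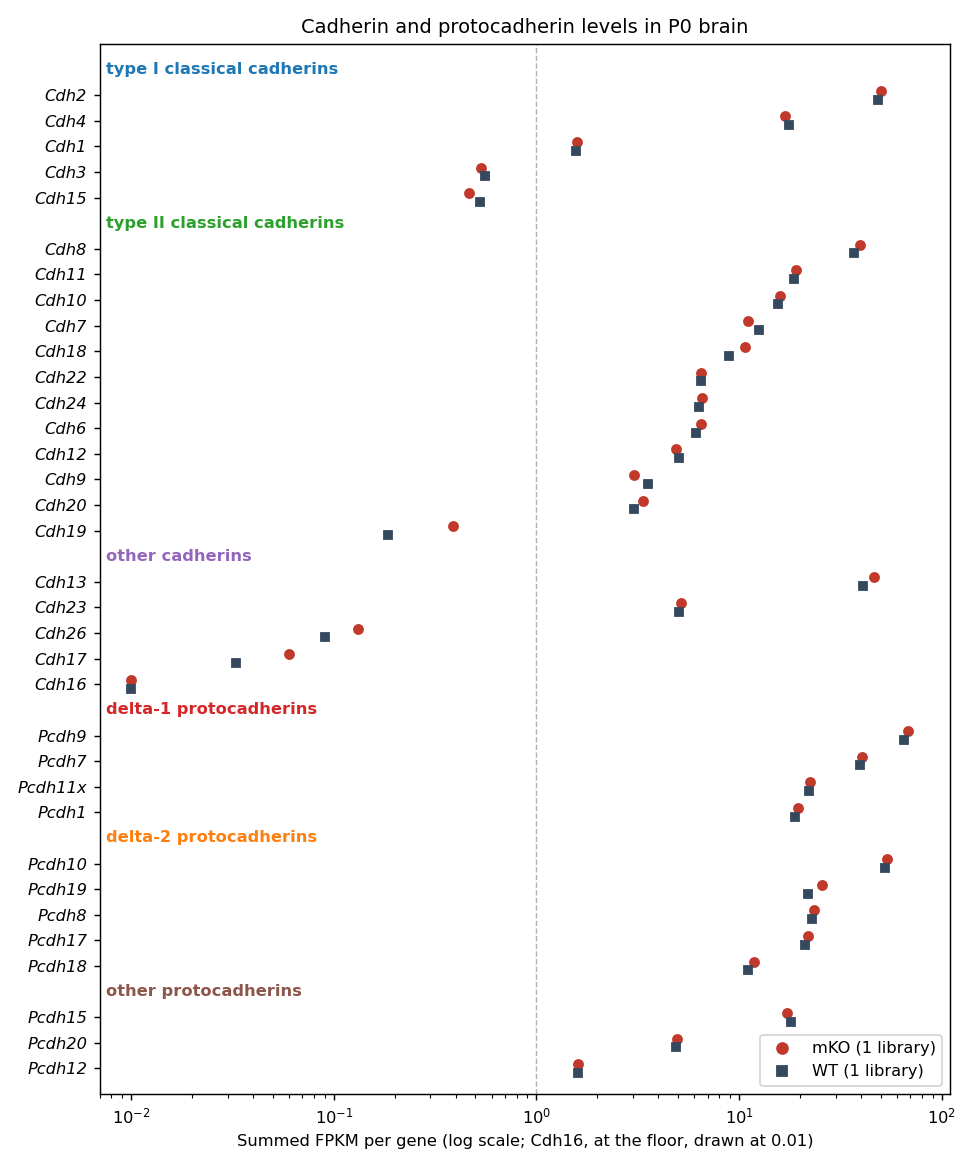
Summed FPKM per gene (log scale) for the 34 cadherins and protocadherins, grouped by subclass; circles are the mKO library and squares the WT library, and the dashed line marks 1 FPKM. The paired symbols lie close together from *Pcdh9* (68.1 in mKO, 64.9 in WT) down to *Cdh1* (1.58 in mKO, 1.57 in WT), while *Cdh19*, *Cdh26* and *Cdh17*, all below 1 FPKM, lie farther apart.

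Levels differed far more between the genes than between the genotypes. The 10 highest genes held 70.0% of the FPKM of the family in mKO and 69.1% in WT, and the 6 genes under the minimum held 0.282% in mKO and 0.26% in WT. Protocadherins, 12 of the 34 genes, held 55.6% in mKO and 55.7% in WT. When the genes were ordered by their mean, the values of neighbours overlapped between the genotypes in 8 of 33 neighbouring pairs, such as *Pcdh19* and *Pcdh8*, or *Pcdh15* and *Cdh4*, and stood apart in the other 25. That count includes the 6 genes under the minimum and depends on how many genes are listed and how widely their levels spread. By subclass, delta-1 protocadherins held 26.9% in mKO and 27.1% in WT, delta-2 protocadherins 24.4% in mKO and 24.0% in WT, and type II cadherins 22.8% in mKO and 22.9% in WT.

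Among type I classical cadherins, *Cdh2* was the main gene. *Cdh2* encodes N-cadherin, the cadherin of neural progenitors, neurons and synapses, and had 50.4 FPKM in mKO and 48.5 FPKM in WT (log2 ratio 0.06). *Cdh4*, R-cadherin, had 16.8 FPKM in mKO and 17.7 FPKM in WT (log2 ratio -0.07). *Cdh1*, the E-cadherin of epithelia, stood at 1.58 FPKM in mKO and 1.57 FPKM in WT. Epithelial marker genes were at a similar low level, with a sum of 2.56 FPKM in mKO and 2.64 FPKM in WT over 4 genes, of which *Cldn4* was listed at the floor in both. The remaining type I genes, *Cdh3* (P-cadherin) and *Cdh15* (the M-cadherin of muscle), were under 0.6 FPKM in both libraries.

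In *Cdh2*, the difference between the pools had opposite signs in its 2 expressed transcripts. The coding transcript ENSMUST00000025166, with a coding length of 2718 bases, had 41.3 FPKM in mKO and 38.3 FPKM in WT. ENSMUST00000152779, annotated with a retained intron, had 9.10 FPKM in mKO and 10.2 FPKM in WT. The coding transcript held 81.9% of the gene in mKO and 79.0% in WT. *Cdh4* came nearly whole from ENSMUST00000000314, with 15.5 FPKM in mKO and 16.8 FPKM in WT.

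Type II classical cadherins, which in the brain often mark single regions and circuits, were led by *Cdh8*. It had 39.5 FPKM in mKO and 36.9 FPKM in WT (log2 ratio 0.10). *Cdh11*, which is also made by mesenchymal cells, had 19.0 FPKM in mKO and 18.7 FPKM in WT, and *Cdh10* had 15.8 FPKM in mKO and 15.5 FPKM in WT. These highest type II genes were all slightly above WT. *Cdh24* had 6.52 FPKM in mKO and 6.32 FPKM in WT, *Cdh6* had 6.47 FPKM in mKO and 6.10 FPKM in WT, and *Cdh12* had 4.89 FPKM in mKO and 5.06 FPKM in WT.

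Type II genes had the highest and the lowest log2 ratio of the expressed family, with *Pcdh19* (0.23) between them in distance from WT. *Cdh18* had 10.6 FPKM in mKO and 8.89 FPKM in WT, a log2 ratio of 0.26, just under the 1.2-fold line. *Cdh9*, which in mouse hippocampus takes part in the synapses of mossy fibres, had 3.03 FPKM in mKO and 3.55 FPKM in WT (log2 ratio -0.22). *Cdh7* had 11.1 FPKM in mKO and 12.6 FPKM in WT (log2 ratio -0.18), and *Cdh20* had 3.37 FPKM in mKO and 3.03 FPKM in WT (log2 ratio 0.15). Summed over protein-coding transcripts only, *Cdh18* was above 1.2-fold, at 9.75 FPKM in mKO and 7.79 FPKM in WT, as were 5.76% of 12455 genes. By the same sum *Cdh7* was below 1/1.2, at 8.49 FPKM in mKO and 10.3 FPKM in WT, as were 6.89% of genes. Both sums include transcripts with short coding sequences. Transcripts with the longest coding sequence had 7.05 FPKM in mKO and 6.35 FPKM in WT in *Cdh18*. In *Cdh7* they had 3.33 FPKM in mKO and 3.73 FPKM in WT.

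Marker genes of brain regions also differed between the pools. All 3 thalamic markers were higher in mKO, with a sum of 46.1 FPKM in mKO and 40.2 FPKM in WT. All 4 striatal markers were lower in mKO, with a sum of 24.7 FPKM in mKO and 28.8 FPKM in WT, while 5 markers of hippocampus and cortex summed to 128 FPKM in mKO and 123 FPKM in WT. Single genes of these lists ranged from 4.68 to 27.4 FPKM in mKO and from 4.01 to 23.2 FPKM in WT in the thalamic list, and from 3.23 to 10.2 FPKM in mKO and from 3.42 to 12.4 FPKM in WT in the striatal list, with none at 0. The 4 cerebellar markers summed to 15.3 FPKM in mKO and 18.2 FPKM in WT, and the 2 above 1 FPKM were both lower in mKO. Of those below 1 FPKM, *Atoh1* was higher in mKO (0.689 FPKM, against 0.541 FPKM in WT). *Pax2* was lower in mKO (0.387 FPKM, against 0.923 FPKM in WT). The 3 hypothalamic markers summed to 6.39 FPKM in mKO and 5.23 FPKM in WT. Among them, *Otp* (2.95 FPKM in mKO, 1.87 FPKM in WT) and *Sim1* were higher in mKO and *Nkx2-1* (2.36 and 2.55 FPKM) was lower. The 5 markers of midbrain and hindbrain, 2 higher and 3 lower in mKO, summed to 14.8 FPKM in mKO and 16.5 FPKM in WT. Of these, *Hoxb5* alone had 2.63 FPKM in mKO and 4.12 FPKM in WT. The part of regional makeup in the cadherin values was not tested.

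**Figure D2:**
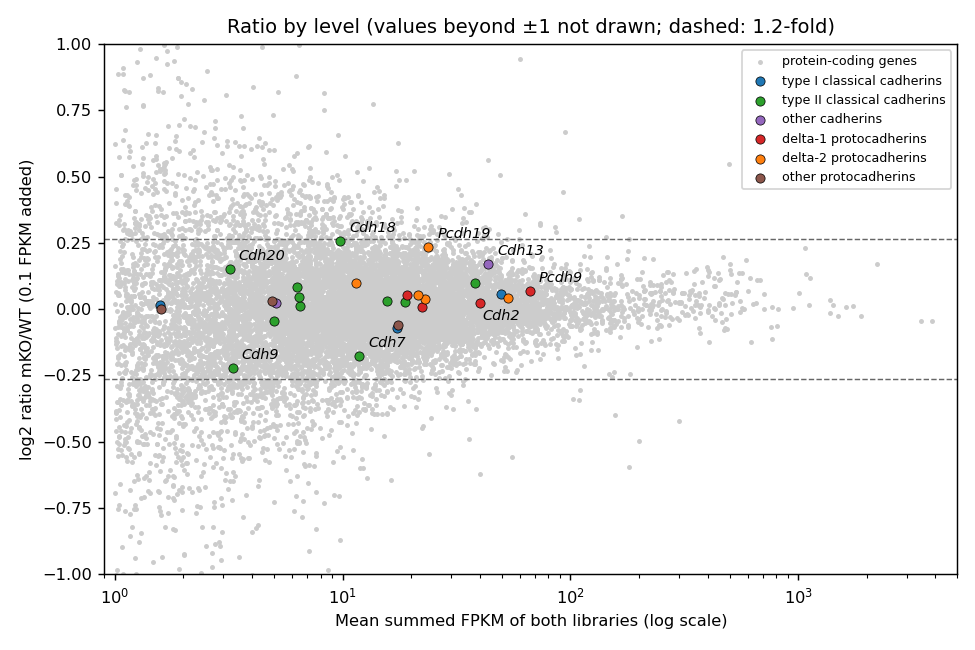
Log2 ratio of mKO to WT (0.1 FPKM added) against the mean summed FPKM (log scale) for 12863 protein-coding genes in grey and the 28 expressed cadherins and protocadherins in colour; dashed lines mark 1.2-fold, and 77 genes beyond 1 on either side are not drawn. All coloured points lie between the dashed lines, with *Cdh18* (0.26) and *Pcdh19* (0.23) at the top and *Cdh9* (-0.22) at the bottom.

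The isoforms of *Cdh18*, *Cdh7* and *Cdh8* had unlike ratios, at levels where many transcripts of any gene differed between the pools. Over all protein-coding genes, 22.7% of transcripts between 0.3 and 1 FPKM differed by less than 1.2-fold. It was 46.6% between 1 and 5 FPKM and 83.4% between 5 and 100 FPKM. The main *Cdh18* transcript, ENSMUST00000164787, had 7.05 FPKM in mKO and 6.35 FPKM in WT, and a shorter coding transcript, ENSMUST00000163361, had 2.28 FPKM in mKO and 1.17 FPKM in WT (ratio 1.95). In *Cdh7*, the transcript ENSMUST00000172005 had 0.621 FPKM in mKO and 1.30 FPKM in WT (ratio 0.476). ENSMUST00000112701, with the same coding length of 2355 bases, had 2.70 FPKM in mKO and 2.43 FPKM in WT, and thus lay on the other side of WT. The largest difference in FPKM within *Cdh7* was that of ENSMUST00000145188, a coding model of 714 bases, with 2.22 FPKM in mKO and 3.97 FPKM in WT. *Cdh8* was spread over 7 expressed transcripts, of which ENSMUST00000142129 had 14.1 FPKM in mKO and 12.2 FPKM in WT, and ENSMUST00000093249 had 6.96 FPKM in mKO and 8.76 FPKM in WT.

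The type II gene *Cdh19*, known from Schwann cells and their precursors, was near the limit of what was listed. It had 0.389 FPKM in mKO and 0.185 FPKM in WT. Its coding transcripts had 0.148 FPKM in mKO and 0.185 FPKM in WT, and a processed transcript of 787 bases had 0.241 FPKM in mKO and was listed at the floor in WT. Schwann cell markers were low too, at a sum of 0.952 FPKM in mKO and 0.925 FPKM in WT over 3 genes, with *Pmp2* listed at the floor in both.

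Of the cadherins of other build, *Cdh13* and *Cdh23* were expressed. *Cdh13*, T-cadherin, has no cytoplasmic tail and is held in the membrane by a lipid anchor. It had 46.2 FPKM in mKO and 41.0 FPKM in WT (log2 ratio 0.17). *Cdh23*, a component of the tip links of hair cells, had 5.15 FPKM in mKO and 5.06 FPKM in WT, of which 78.1% in mKO and 69.0% in WT came from a processed transcript of 438 bases. *Cdh26*, the intestinal *Cdh17* and the kidney gene *Cdh16* were between the floor and 0.132 FPKM in mKO and between the floor and 0.0903 FPKM in WT, with all 14 *Cdh16* transcripts at the floor in both libraries.

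The higher *Cdh13* sum in mKO came from transcripts without an annotated coding sequence. The full coding transcript, ENSMUST00000117160, had 32.4 FPKM in mKO and 33.6 FPKM in WT. The other transcripts together had 13.8 FPKM in mKO and 7.41 FPKM in WT, so that the side on which *Cdh13* lies depends on whether they are counted: with protein-coding transcripts only, its log2 ratio was -0.05. The largest difference was that of ENSMUST00000129548, with 6.16 FPKM in mKO and 1.87 FPKM in WT (ratio 3.29). ENSMUST00000142551 had 4.59 FPKM in mKO and 2.92 FPKM in WT, and ENSMUST00000145849 had 1.55 FPKM in mKO and 1.44 FPKM in WT. Retained-intron transcripts held 28.1% of the gene in mKO and 16.2% in WT.

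ENSMUST00000129548 is a 5′ fragment of the gene, of 4 exons and 715 bases, on the plus strand of chromosome 8 from 118283796 to 118757658 (GRCm38). Its last 174 bases, from 118757485 to 118757658, read on past the end of an exon that 5 annotated *Cdh13* transcripts share, and lie in no other annotated transcript of the gene. The sequence shows where it parts from them, starting at 118757465, with the bases found in this transcript alone in capitals (first 60 of 174; GENCODE M21). The capitals begin with the letters GTAAGT at the exon end.
Cdh13 ENSMUST00000129548: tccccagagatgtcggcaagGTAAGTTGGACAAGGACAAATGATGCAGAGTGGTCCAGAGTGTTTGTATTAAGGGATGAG

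Delta-1 protocadherins differ from delta-2 protocadherins in having 1 more extracellular repeat and a motif that binds protein phosphatase 1. *Pcdh9* was the highest gene of the family, at 68.1 FPKM in mKO and 64.9 FPKM in WT (log2 ratio 0.07). *Pcdh7* had 40.3 FPKM in mKO and 39.7 FPKM in WT, and the X-linked *Pcdh11x* had 22.3 FPKM in mKO and 22.2 FPKM in WT. *Pcdh1*, at 19.5 FPKM in mKO and 18.8 FPKM in WT, closed the group. The 4 log2 ratios lay between 0.01 and 0.07.

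Part of the rank of *Pcdh9* rested on a short transcript. ENSMUST00000192817, a single-exon retained-intron model of 656 bases, had 28.2 FPKM in mKO and 26.2 FPKM in WT, which was 41.4% of the gene in mKO and 40.3% in WT. Its coding transcripts summed to 39.9 FPKM in mKO and 38.7 FPKM in WT, below the same sums of *Pcdh10*, *Cdh2* and *Pcdh7* in mKO and below those of *Pcdh10* and *Pcdh7* in WT. The coding transcript ENSMUST00000068992 was among those above 2-fold, with 1.08 FPKM in mKO and 0.000791 FPKM in WT. ENSMUST00000195826, with the same coding length of 3711 bases, had 10.3 FPKM in mKO and 9.02 FPKM in WT, and ENSMUST00000193901 had 15.4 FPKM in mKO and 16.5 FPKM in WT. In *Pcdh7*, the main transcript ENSMUST00000191837 had 21.8 FPKM in mKO and 22.7 FPKM in WT, and in *Pcdh11x* ENSMUST00000113358 had 12.3 FPKM in mKO and 11.4 FPKM in WT.

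Delta-2 protocadherins had *Pcdh10* as their highest gene, at 54.0 FPKM in mKO and 52.5 FPKM in WT. *Pcdh10*, OL-protocadherin, takes part in axon growth and in the elimination of synapses in mouse neurons. Its FPKM were spread over 4 coding isoforms, in which ENSMUST00000170695 had 21.8 FPKM in mKO and 22.4 FPKM in WT, and the single-exon ENSMUST00000193252, whose coding length of 2688 bases is the shortest of the 4, had 21.2 FPKM in mKO and 20.2 FPKM in WT. *Pcdh17*, which helps axons to extend together, had 21.81 FPKM in mKO and 21.03 FPKM in WT, all from 1 transcript.

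*Pcdh19* had the largest distance from WT among protocadherins. *Pcdh19*, X-linked and the gene of an epilepsy that affects mainly girls, had 25.7 FPKM in mKO and 21.9 FPKM in WT (log2 ratio 0.23). Its 3 main coding transcripts were each somewhat higher in mKO, with ENSMUST00000167944 at 9.34 FPKM in mKO and 8.56 FPKM in WT. A transcript of 335 bases annotated for nonsense-mediated decay, ENSMUST00000193376, had 1.61 FPKM in mKO and was listed at the floor in WT. With protein-coding transcripts only, the values were 22.6 FPKM in mKO and 20.7 FPKM in WT (log2 ratio 0.13).

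*Pcdh8* and *Pcdh18* also had transcripts with unlike ratios. *Pcdh8*, known as arcadlin and induced by neuronal activity in rat, had 23.4 FPKM in mKO and 22.8 FPKM in WT. Its main transcript ENSMUST00000039568 had 16.73 FPKM in mKO and 17.97 FPKM in WT, and ENSMUST00000195355, with a shorter coding sequence of 2919 bases, had 5.25 FPKM in mKO and 2.65 FPKM in WT (ratio 1.98). *Pcdh18*, whose protein binds the adaptor Dab1, had 11.8 FPKM in mKO and 11.0 FPKM in WT. A processed transcript of 545 bases, ENSMUST00000193600, accounted for this with 0.977 FPKM in mKO, while it was listed at the floor in WT, and the log2 ratio with protein-coding transcripts only was -0.03.

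The other protocadherins were *Pcdh15*, *Pcdh20* and *Pcdh12*. *Pcdh15*, the partner of *Cdh23* in the tip link, had 17.2 FPKM in mKO and 17.9 FPKM in WT (log2 ratio -0.06), of which retained-intron transcripts made up 67.6% in mKO and 70.1% in WT. *Pcdh20* had 4.96 FPKM in mKO and 4.85 FPKM in WT. *Pcdh12*, a protocadherin of endothelium, had the same rounded level of 1.60 FPKM in both, with its coding transcript at 0.572 FPKM in mKO and 0.394 FPKM in WT. All 5 endothelial markers were lower in mKO, with a sum of 75.6 FPKM in mKO and 84.9 FPKM in WT and single genes from 2.65 to 56.7 FPKM in mKO and from 2.73 to 63.6 FPKM in WT, and the endothelial cadherin *Cdh5*, left out by the rule, had 4.79 FPKM in mKO and 5.64 FPKM in WT. The part of endothelial RNA in the *Pcdh12* value was not tested.

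**Figure D3:**
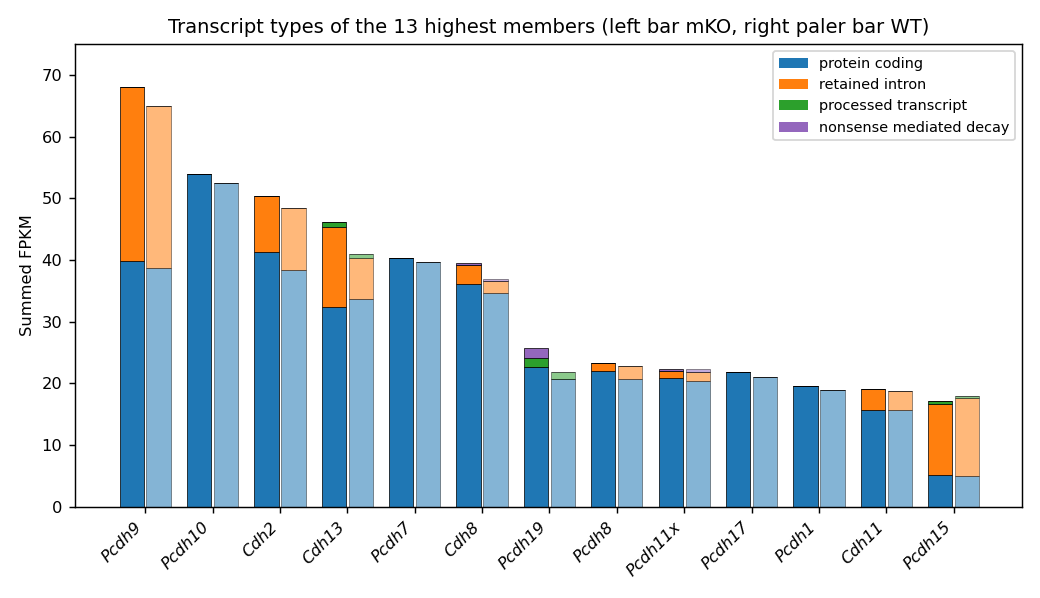
Summed FPKM of the 13 highest genes, split by annotated transcript type; the left bar of each pair is the mKO library and the right, paler bar the WT library. The retained-intron share is largest in *Pcdh15* (67.6% in mKO, 70.1% in WT) and *Pcdh9* (41.4% in mKO, 40.3% in WT), and the *Cdh13* pair differs in its retained-intron part (28.1% in mKO, 16.2% in WT) rather than in its coding part.

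Over the 28 expressed genes, protein-coding transcripts held 83.9% of the FPKM in mKO and 85.0% in WT, and retained-intron transcripts held 13.8% in mKO and 13.2% in WT. Over all protein-coding genes above the same minimum, retained-intron transcripts held 8.44% in mKO and 8.42% in WT. Because FPKM is divided by length, a short transcript counts for as much as a long one in these sums with far fewer fragments. The retained-intron share of the family rested on few genes, with 28.2 FPKM in mKO and 26.2 FPKM in WT from the *Pcdh9* model of 656 bases alone. Per gene, the median retained-intron share was 0% in the family in both libraries. Over all genes it was 0.000469% in mKO and 0.000631% in WT.

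Of the 194 transcripts of the family, 96 from 30 genes had a mean FPKM above 0.3, and 53 were at the floor in both libraries. The 96 comprised 66 protein-coding, 21 retained-intron, 5 processed and 4 nonsense-mediated decay transcripts. Above 2-fold of WT were 4 of the 96, where 9.42% of 45383 transcripts of protein-coding genes were, and these are the transcripts of *Cdh13*, *Pcdh9*, *Pcdh18* and *Pcdh19* described above. Those of *Pcdh18* and *Pcdh19* were at the floor in WT. Below 0.5-fold was 1 of the 96, that of *Cdh7*, where 8.93% were. In 4 of these 5 transcripts, all but that of *Cdh13*, at most 9 bases are found in no other annotated transcript of the gene.

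The counts depend on which library carries the minimum. With the FPKM above 0.3 required in WT, as in the column headings of the study's transcript lists, 1 of 96 transcripts was above 2-fold, where 4.27% of 44915 transcripts of protein-coding genes were, and 4 of 96 were below 0.5-fold, where 13.6% were. The 3 further transcripts below 0.5-fold belong to *Pcdh1*, *Pcdh11x* and *Cdh23* and had between 0.315 and 0.442 FPKM in WT. With the minimum in mKO, 6 of 98 were above, where 13.8% of 44727 were, and 1 was below, where 3.79% were.

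Agreement between the pools grew with the level of the transcript. Of 33 family transcripts with a mean FPKM between 5 and 100, 32 (97.0%) differed by less than 1.2-fold, against 83.4% of 10732 transcripts of protein-coding genes in that range. It was 20 of 37 (54.1%) between 1 and 5 FPKM, against 46.6%, and 8 of 26 (30.8%) between 0.3 and 1 FPKM, against 22.7%. Family transcripts above the minimum were longer, with a median of 3709 bases against 1854 bases over all such genes.

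**Figure D4:**
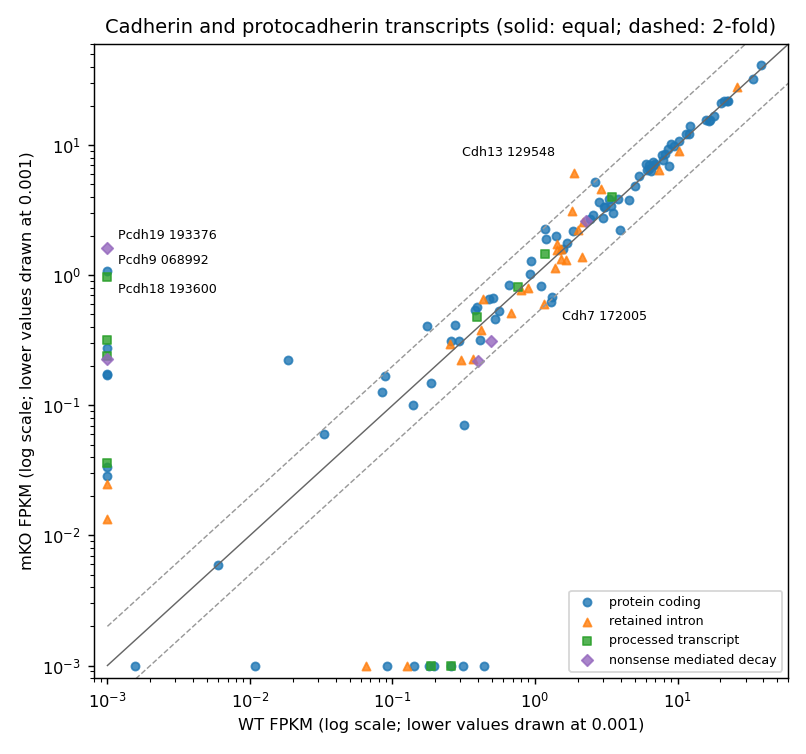
FPKM in mKO (vertical, log scale) against WT (horizontal, log scale) for single transcripts, with the symbol giving the annotated type; values under 0.001 are drawn at 0.001, the solid line marks equal values and the dashed lines 2-fold. Transcripts with a mean over 5 FPKM follow the solid line, and the 5 named transcripts, 4 above 2-fold and 1 below 0.5-fold, lie at 6.16 FPKM or less.

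The family also shared features of its genes. The median gene span was 155.6 kb against 25.4 kb for all expressed protein-coding genes, and 18 of 28 (64.3%) spanned over 100 kb, against 16.1%. The spans ran from 4.54 kb in *Pcdh8* to 1550 kb in *Pcdh15*. Type II genes lay in runs: *Cdh6*, *Cdh9*, *Cdh10*, *Cdh12* and *Cdh18* follow each other on chromosome 15 between 13034200 and 23474418 (GRCm38). Neighbours in this run had unlike levels and signs, with *Cdh12* at a log2 ratio of -0.05 beside *Cdh18* at 0.26. On chromosome 1 the same held for *Cdh20* at 0.15 and *Cdh7* at -0.18, and on chromosome 14 *Pcdh8*, *Pcdh17*, *Pcdh20* and *Pcdh9* had log2 ratios from 0.03 to 0.07 at levels from 4.96 to 68.1 FPKM in mKO and from 4.85 to 64.9 FPKM in WT.

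Most partners of these proteins were close to WT, with 1 catenin and 1 gene of the WAVE list farther off. Beside the counts of each list below stand 6.13% above 1.2-fold and 7.49% below 1/1.2 among 12863 protein-coding genes. Among catenins, 9 of 10 genes were above 1 FPKM, 0 were above 1.2-fold and 1 was below 1/1.2, and the median log2 ratio was -0.01. *Ctnnb1*, beta-catenin, had 288 FPKM in mKO and 276 FPKM in WT, and *Ctnna1*, an alpha-catenin, had 12.7 FPKM in mKO and 11.7 FPKM in WT. *Pkp4* had 23.5 FPKM in mKO and 26.9 FPKM in WT, and *Ctnnd1*, the p120 catenin that steadies cadherins at the membrane, had 21.1 FPKM in mKO and 22.3 FPKM in WT. The gene below 1/1.2 was *Arvcf*, a relative of *Ctnnd1*, with 2.01 FPKM in mKO and 3.81 FPKM in WT (log2 ratio -0.89). *Arvcf*, and *Wasf2* in the next list, were named after their values were seen.

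The next list held genes of the WAVE complex, which links protocadherins to actin, and *Ppp1ca*, a gene of protein phosphatase 1. In it, 10 of 10 genes were above 1 FPKM, 0 were above 1.2-fold and 1 was below 1/1.2, with a median log2 ratio of -0.02. *Wasf1* had 20.2 FPKM in mKO and 18.3 FPKM in WT, and *Cyfip2* had 34.1 FPKM in mKO and 32.3 FPKM in WT. *Abi1* had 27.3 FPKM in mKO and 28.8 FPKM in WT, and *Wasf3* had 12.2 FPKM in mKO and 12.8 FPKM in WT. *Wasf2*, another WAVE protein, was the one below, with 3.67 FPKM in mKO and 5.50 FPKM in WT (log2 ratio -0.57).

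Nectins and afadin, which build junctions beside cadherins, had 4 of 5 genes above 1 FPKM and a median log2 ratio of -0.05, with none past 1.2-fold in either direction. *Afdn* had 59.7 FPKM in mKO and 59.1 FPKM in WT, *Nectin2* had 12.5 FPKM in mKO and 12.4 FPKM in WT, *Nectin3* had 21.2 FPKM in mKO and 24.0 FPKM in WT, and *Nectin1* had 8.83 FPKM in mKO and 9.53 FPKM in WT. The enzymes that cut cadherins or their precursors, 8 of 8 above 1 FPKM, had a median of 0.03 and none past 1.2-fold. They ranged from *Adam17*, a sheddase, at 7.31 FPKM in mKO and 6.72 FPKM in WT, and the gamma-secretase subunit *Aph1a* at 14.6 FPKM in mKO and 13.5 FPKM in WT, to *Psenen* at 19.4 FPKM in mKO and 20.4 FPKM in WT and *Furin*, which removes the cadherin propeptide, at 6.21 FPKM in mKO and 7.04 FPKM in WT.

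Large cadherins of the Fat, Dachsous, Celsr and calsyntenin groups leaned to the same side as the family. Of 12 genes, 10 were above 1 FPKM, 9 of them were higher in mKO, none was past 1.2-fold, and the median log2 ratio was 0.04. *Dchs1*, a ligand of Fat4, had 25.9 FPKM in mKO and 24.5 FPKM in WT, and *Celsr2*, of the planar polarity pathway, had 17.2 FPKM in mKO and 16.5 FPKM in WT. *Fat1* had 22.4 FPKM in mKO and 22.8 FPKM in WT, and *Clstn3*, a synaptic calsyntenin, had 54.1 FPKM in mKO and 53.7 FPKM in WT. *Celsr3*, a gene of neurons, was listed at the floor in mKO and at 0.284 FPKM in WT (named after its values were seen), and values at the floor are given here as listed, not as absence.

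**Figure D5:**
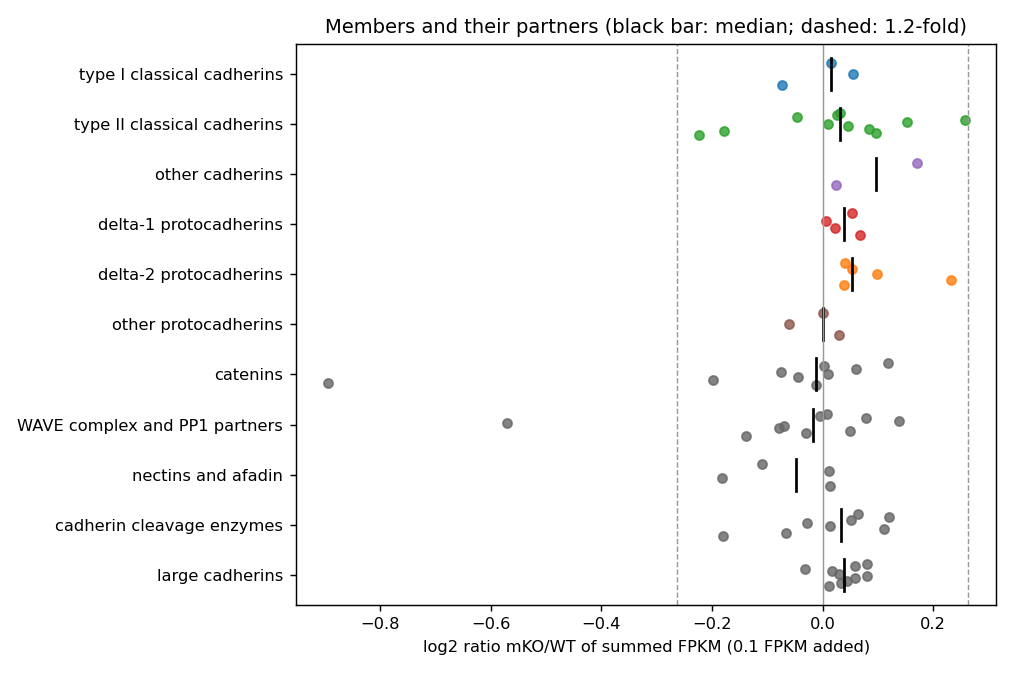
Log2 ratio of mKO to WT of summed FPKM (0.1 FPKM added) for each gene with a mean of at least 1 FPKM, by subclass of the family (coloured) and by list of partner genes (grey); black bars are medians and dashed lines mark 1.2-fold. The medians lie between -0.05 and 0.10, and the only points beyond the dashed lines are *Arvcf* and *Wasf2* among the partners.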

How the data were processed

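RNA was measured in 1 mKO and 1 WT library, each from the pooled RNA of 6 brains. Libraries were strand-specific after depletion of ribosomal RNA. Per the labels, the authors used Trimmomatic 0.36 for trimming, HISAT2 2.1.0 for alignment (GRCm38.p5) and Cuffdiff for the deposited FPKM of each Ensembl transcript. For Cuffdiff, the version and the scaling between libraries were not given in the sources used here. In the deposited FPKM, 1e-05 stands for 0, although 319 values in mKO and 320 in WT, none of a member, lie below it. Their ratio, log2, p-value and q-value columns, and a second sheet with part of the same rows, were not used.

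Computation used pandas 2.3.3 and numpy 2.4.6 under python 3.11.15, with matplotlib 3.10.9 for plots. FPKM were summed per gene, and 0.1 FPKM was added before log2 ratios were taken, so that ratios of low genes are drawn towards 0. Genes were compared at a mean of at least 1 FPKM and a fold of 1.2, and transcripts at a mean above 0.3 FPKM and a fold of 2. Against the floor no ratio is printed, but a transcript at the floor in 1 library was still counted as past 2-fold. This holds for the family and for the shares over all genes. No test could be made between 2 single libraries. The annotation of transcripts was GENCODE M21, which held 194 of the 194 transcript identifiers, 187 of them at the deposited coordinates. The call functions were tested on simulated data.

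The members, lists, thresholds and naming rule were chosen with earlier results of these data known. The text names each member with a mean of at least 1 FPKM and each transcript counted past 2-fold in them. It also names the most abundant transcript of the 10 highest members and the members predicted as targets by miRDB or TargetScan. Of each list of partner genes, the 2 highest and 2 lowest with a mean of at least 5 FPKM are named. Other genes and transcripts with values were picked after those were seen. Alternatives changed the pseudocount, the minimum, the scaling and the transcripts summed.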

Additional observations from a re-analysis of the deposited data

How the results depend on the processing

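No paired analysis was possible because only 1 library represents a genotype, and for the same reason no library could be left out. The main results were recomputed to 62 alternative values, of which 49 were close to the reported ones (a median within 0.05 on the log2 scale, a count within 1.5 times, a share within 5 percentage points) and 13 did not. With no minimum, 3 members were above 1.2-fold (*Cdh19*, *Cdh26* and *Cdh17*), beside 11.9% of genes, and 20 of 141 transcripts were above 2-fold and 19 below 0.5-fold, beside 17.9% and 18.6% of all transcripts of protein-coding genes. With protein-coding transcripts only, 1 member was above 1.2-fold and 1 below 1/1.2. With the minimum on WT, 1 transcript was above and 4 below. With a mean FPKM above 1, it was 1 of 70 above and 0 below (4.56% and 3.69% of all), and without transcripts at the floor 2 of 94 were above (7.63%). Counting the most abundant transcript of each gene only, type I cadherins held 17.7% of the family in mKO, and delta-1 protocadherins held 21.2% in mKO and 20.7% in WT. The median log2 ratio of the family lay between 0.025 and 0.043 under every alternative, of which the lowest came from scaling to the same total FPKM. Of 224 alternative values of single members, 219 stayed within 0.1 on the log2 scale; the 5 others (*Cdh13*, *Cdh23*, *Pcdh12*, *Pcdh18* and *Pcdh19*) arose with protein-coding transcripts only. Under that setting *Cdh11*, *Cdh13*, *Cdh22*, *Pcdh15* and *Pcdh18* changed side, and with the same total *Pcdh11x* and *Pcdh12* did. The alternatives for the count of members higher in mKO were chosen after seeing the data. Depth is unknown, and with 1 pool a genotype the spread between animals cannot be given for any of these values.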
